A study of Homo sapiens with 8 samples.

Results

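The 8 RNA-seq libraries came from 4 human thyroid cancer cell lines, with 1 control and 1 treated library in each line, and all 8 were used. In 8505C and CAL-62, both derived from anaplastic carcinoma, the treated cells received an siRNA against NR1D1 and the control cells a control siRNA. In TPC-1, from papillary carcinoma, and FTC-133, from follicular carcinoma, the treated cells received a vector that overexpresses NR1D1 and the control cells an empty vector. The comparison set the 4 treated libraries against the 4 controls of the same lines, without regard to whether NR1D1 was lowered or raised, over the 10063 protein-coding genes with a mean level of at least 5 among the 58884 genes in the files. A gene that moves the same way in every line therefore does not follow the direction of NR1D1. The labels give no time after transfection and no control without transfection, and 1 library a group leaves each single line without a replicate check.

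NR1D1 encodes REV-ERB alpha, a heme-binding nuclear receptor of the circadian clock. It binds AGGTCA-type elements and represses its targets, among them BMAL1, through the NCoR and HDAC3 corepressor complex. Cells that take up a nucleic acid can also respond through RNA and DNA sensors that switch on interferon-stimulated genes. Collagens, laminins, fibrillins and their cross-linking enzymes make up the extracellular matrix that cultured carcinoma cells lay down. Ribosome biogenesis factors process ribosomal RNA in the nucleolus.

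Levels are in TPM, the length-corrected share of a gene's transcripts after every library was rescaled to a sum of 1000000. A log2 ratio is log2 of (treated + 1) over (control + 1), and the mean change is the average of the 4 ratios. The added 1 makes ratios of genes at low level smaller than the ratio of their levels. The reads behind the libraries, recovered from the steps in the values, were 12.86 to 23.19 (in units of 1e6 reads). The share of all transcripts from the mitochondrial genome was 15.68% to 29.28% in 6 libraries, and 57.22% in the CAL-62 control and 67.85% in treated CAL-62. The median log2 ratio over the genes tested was 0.03 for 8505C, -0.36 for CAL-62, -0.05 for TPC-1 and 0.04 for FTC-133, and the median of the mean change was -0.09. The thyroid products TG and SLC5A5 were at or below 0.69 TPM in all 8 libraries. PAX8, a thyroid lineage factor, was at 0.5 TPM in both 8505C libraries, where NKX2-1 was at 63.38 and 100.3 TPM, and at 53.75 TPM or more in the other lines. The leukocyte gene PTPRC was at or below 0.06 TPM in every library.

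NR1D1 itself was 18.23 TPM in control and 11.24 TPM in treated 8505C, and 21.97 and 10.14 TPM in CAL-62. It was 190.0 TPM in control and 208.7 TPM in treated TPC-1, and 105.4 and 136.9 TPM in FTC-133. The log2 ratios of -0.65, -1.04, 0.13 and 0.37 had the sign that the labels give in all 4 lines. In TPC-1 and FTC-133 the rise was small, to 1.099 and 1.299 times the control. Reference genes moved by similar amounts there, with ratios of 0.20 and -0.60 for GAPDH and -0.15 and 0.42 for ACTB. The mean change of NR1D1 was -0.30 (SE 0.27, n = 4 lines, limma adjusted p = 0.694). The 18 core clock genes tested had no member past an unadjusted p of 0.05 and none in 1 direction in every line, beside 4.58% higher and 5.44% lower at that p over all genes tested. BMAL1, the activator of the clock loop, had log2 ratios of 0.39 and 0.69 in the siRNA lines and -0.26 and -0.46 in the vector lines. Its mean change was 0.09, and this sign turned without 8505C or without CAL-62.

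OLFML2B was the only gene that changed by limma at an adjusted p under 0.05, which is 0.00994% of the genes tested. It rose. OLFML2B encodes an olfactomedin-like protein of the photomedin group, secreted proteins that bind proteoglycans. In 8505C it was 1.42 TPM in the control, on 21 reads, and 12.58 TPM in the treated library. In CAL-62 it went from 22.05 to 80.56 TPM, in TPC-1 from 16.23 to 63.56 TPM and in FTC-133 from 30.43 to 112.6 TPM. The treated library was above its own control in all 4 lines, whereas the level of treated 8505C lay below the controls of the other 3 lines. The log2 ratios were 2.49, 1.82, 1.91 and 1.85, and the mean change was 2.02 (SE 0.22, n = 4 lines), or 4.05-fold, with a limma adjusted p of 0.00664. The call was lost without 8505C (adjusted p = 0.363), CAL-62 (0.125) or FTC-133 (0.0877), without a filter on low values (0.59) and without the cell line term (1.0), and it held without TPC-1 (0.0443). Other settings called more genes, OLFML2B among them: 8 with a mean of at least 20, 4 with a robust prior, and 97 with siRNA and vector effects fitted separately, a model added after values were seen. A sign-flip test of 4 pairs cannot give an exact two-sided p below 0.125.

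The related OLFML2A, the other photomedin, had the next largest ratio floor. Its control and treated levels were 5.71 and 72.57 TPM in 8505C, 0.43 and 2.95 TPM in CAL-62, 3.2 and 14.23 TPM in TPC-1, and 23.57 and 66.95 TPM in FTC-133. All 4 treated libraries lay above their own controls, with a mean change of 2.06 (SE 0.31, n = 4 lines), but limma's adjusted p was 0.114. Both genes are shown by promoter because they share a protein family and moved in 1 direction. OLFML2B lies on the minus strand of chromosome 1 at 161983192-162023854 and OLFML2A on the plus strand of chromosome 9 at 124777158-124814885, by GENCODE 29 on GRCh38. The RefSeq promoters (GRCh38.p14), 5′ to 3′, were chr1:162023820-162024119 on the minus strand and chr9:124776883-124777182 on the plus strand. Capitals mark GGGCGG, the GC box, on either strand.
OLFML2B: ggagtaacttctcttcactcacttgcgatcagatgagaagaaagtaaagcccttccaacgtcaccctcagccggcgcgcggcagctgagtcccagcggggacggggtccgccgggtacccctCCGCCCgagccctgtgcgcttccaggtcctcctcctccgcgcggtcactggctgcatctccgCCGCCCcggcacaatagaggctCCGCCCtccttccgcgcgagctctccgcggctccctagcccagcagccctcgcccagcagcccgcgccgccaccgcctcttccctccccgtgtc
OLFML2A: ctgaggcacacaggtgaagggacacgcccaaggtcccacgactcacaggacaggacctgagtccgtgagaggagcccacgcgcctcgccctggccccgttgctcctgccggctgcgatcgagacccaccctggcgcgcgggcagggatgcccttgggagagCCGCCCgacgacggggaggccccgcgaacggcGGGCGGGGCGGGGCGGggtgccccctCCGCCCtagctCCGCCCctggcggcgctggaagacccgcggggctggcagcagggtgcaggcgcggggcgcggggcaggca
The OLFML2B promoter held 3 GC boxes and that of OLFML2A held 6. GGGCGG was in 72.7% of the 8272 promoters found for tested genes and in 76.9% of the 108 found for genes higher in every line.

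**Figure D1:**
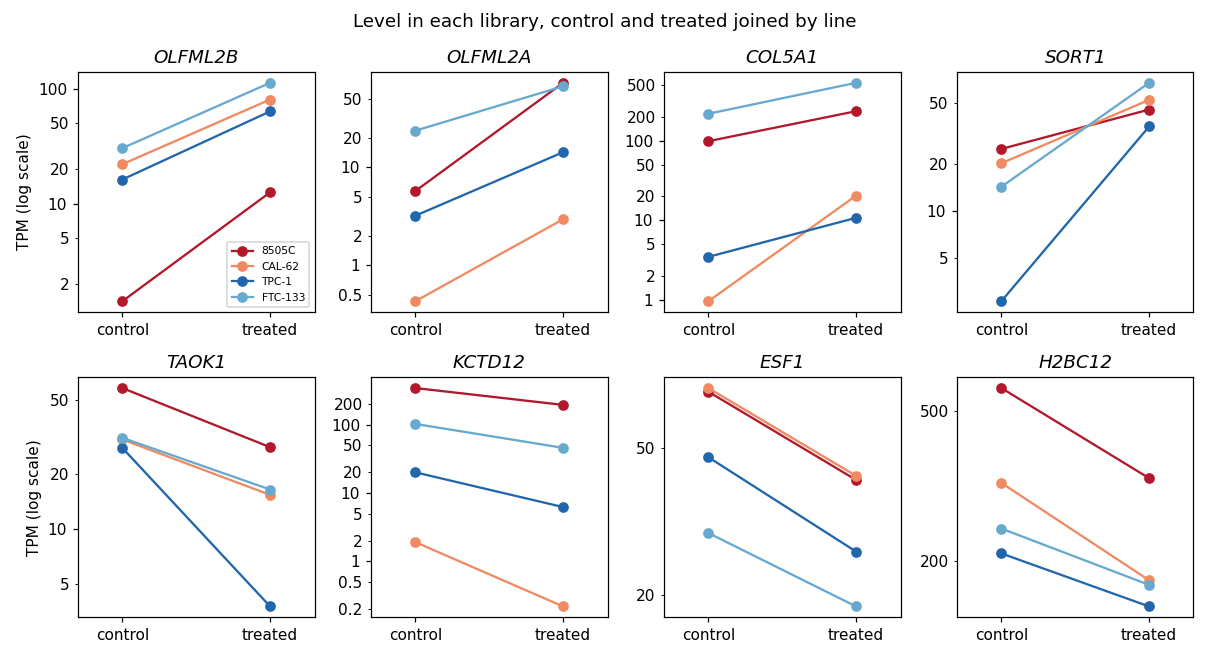
Level in TPM (log axis) of 8 genes in the control and treated library of each cell line, joined by a line in the colour of the cell line. Each gene moves in 1 direction in all 4 lines; OLFML2B reaches 12.58 TPM in treated 8505C and 112.6 TPM in treated FTC-133.

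A log2 ratio of at least 0.3 in 1 direction in every line was found for 140 genes that were higher (1.39% of the genes tested) and 98 that were lower (0.974%). Without a minimum, 643 genes were above 0 in every line (6.39%) and 1159 below 0 (11.5%). Centring each line on its own median gave 203 and 58 genes past 0.3, of which 130 and 52 were among the same 140 and 98. At an unadjusted p under 0.05, 461 genes were higher and 547 lower, a share of 45.7% higher. This share was 63.5% after centring (729 and 419 genes) and 65.7% with mitochondrially encoded genes left out (821 and 429), so the balance of directions depended on the scaling. Only some other combinations of direction were as common. Past 0.3, 204 genes were higher in FTC-133 and lower in the other 3 lines. Another 126 were higher in 8505C and FTC-133 and lower in CAL-62 and TPC-1. In TPC-1 114 were higher while lower in the other 3 lines. The remaining mixed combinations held 0 to 81 genes.

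**Figure D2:**
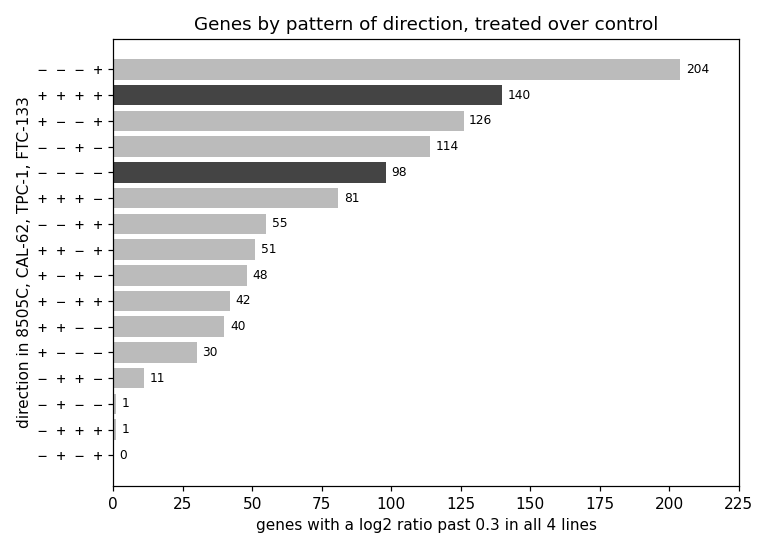
Number of genes with a log2 ratio past 0.3 in all 4 lines, for each combination of higher (+) and lower (−), the lines in the order 8505C then CAL-62, then TPC-1, then FTC-133. The dark bars, 140 and 98 genes, have 1 direction in every line; the longest bar, 204 genes, does not.

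The 15 higher genes with the largest ratio floor, meaning the smallest of the 4 ratios, ran from 1.82 for OLFML2B to 0.77 for LOXL1. The 14 other than OLFML2B had limma adjusted p-values of 0.114 to 0.276. Several encode matrix proteins or act on them. COL5A1, the alpha chain of a collagen that starts fibril assembly, was 98.96 and 236.1 TPM in control and treated 8505C, 0.96 and 20.48 TPM in CAL-62, 3.47 and 10.76 TPM in TPC-1, and 219.0 and 537.4 TPM in FTC-133. Its mean change was 1.85 (SE 0.34, n = 4 lines; limma adjusted p = 0.122), and CAL-62 stood apart with a ratio of 3.46 beside 1.25 to 1.39 elsewhere. ADAMTS12, a secreted metalloprotease, was 18.45 and 43.55 TPM in 8505C, 4.19 and 13.4 TPM in CAL-62, 17.73 and 44.77 TPM in TPC-1, and 45.88 and 88.82 TPM in FTC-133. Its 4 ratios lay close together, from 0.94 to 1.47.

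LTBP2, a matrix protein of the latent TGF-beta binding family, had ratios of 0.91 to 1.45. LOXL1, an amine oxidase that cross-links elastin and collagen, had ratios of 0.77 to 1.31 in 3 lines and 2.63 in FTC-133. MFGE8, a secreted bridge between phosphatidylserine and integrins, was 15.31 and 31.88 TPM in 8505C, 42.91 and 95.5 TPM in CAL-62, 18.34 and 36.64 TPM in TPC-1, and 84.82 and 221.9 TPM in FTC-133. Each treated library lay above its control by a similar ratio, 0.96 to 1.38, with a mean change of 1.12 (SE 0.22).

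Others of the 15 act at membranes. SORT1 encodes sortilin, a sorting receptor of the Golgi and endosomes. Control and treated levels were 25.15 and 45.14 TPM in 8505C, 20.32 and 52.14 TPM in CAL-62, 2.62 and 35.12 TPM in TPC-1, and 14.35 and 67.18 TPM in FTC-133. Its ratios were larger in the vector lines (3.32 and 2.15) than in the siRNA lines (0.82 and 1.32), and the test of that difference gave a limma adjusted p of 0.212. ADGRG1 and CELSR2 are adhesion G protein-coupled receptors, with mean changes of 1.37 and 1.35. RAPGEF3, a cAMP-activated exchange factor for Rap, had ratios of 0.89 to 1.41, and TNFSF9, the ligand of 4-1BB, 0.83 to 1.34. REEP2, which shapes endoplasmic reticulum membrane, MLPH, which links melanosomes to myosin, and the lipid transporter ABCA7 had mean changes of 1.40, 1.60 and 1.06.

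**Figure D3:**
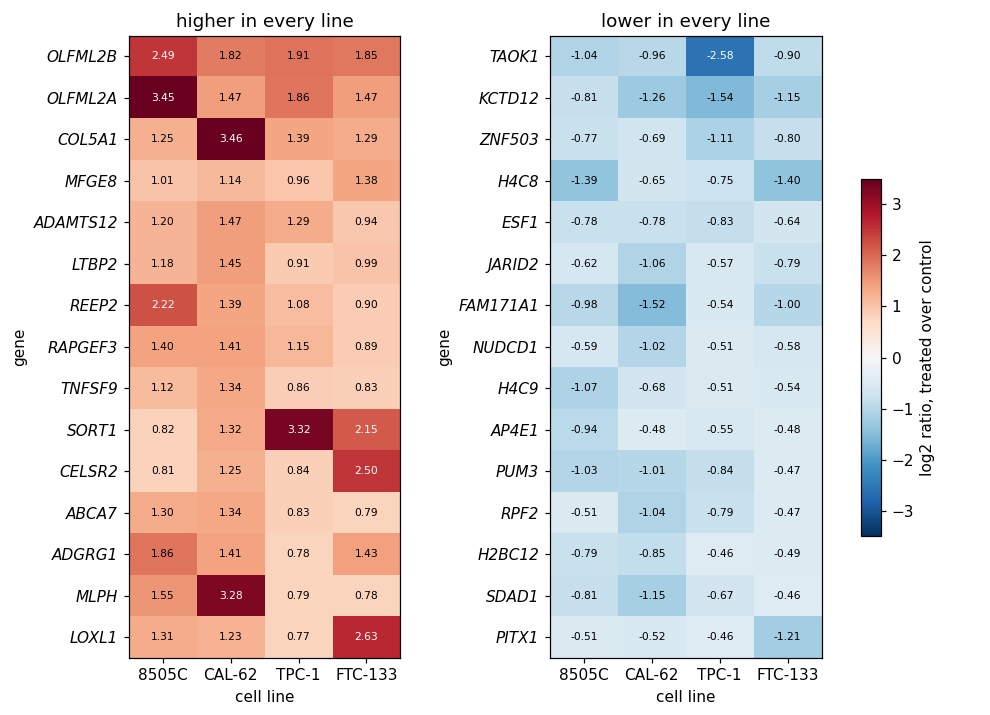
Log2 ratio of treated over control in each line for the 15 higher genes (left) and 15 lower genes (right) with the largest ratio floor, in that order. Higher genes reach 3.46 (COL5A1 in CAL-62); among lower genes only TAOK1 in TPC-1, at -2.58, passes -2.

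The ratio floors of the 15 lower genes were smaller, from 0.9 for TAOK1 to 0.46 for PITX1, with limma adjusted p-values of 0.122 to 0.411. TAOK1, a kinase upstream of stress-activated MAP kinases and the Hippo pathway, was 58.42 and 27.82 TPM in control and treated 8505C, 30.66 and 15.31 TPM in CAL-62, 27.59 and 3.78 TPM in TPC-1, and 31.3 and 16.37 TPM in FTC-133. TPC-1 stood apart, with a ratio of -2.58 beside -1.04 to -0.90. KCTD12, an auxiliary subunit of GABA-B receptors, was 342.8 and 194.4 TPM in 8505C, 1.92 and 0.22 TPM in CAL-62, 20.1 and 6.24 TPM in TPC-1, and 102.5 and 45.78 TPM in FTC-133. Its mean change was -1.19 (SE 0.22; limma adjusted p = 0.122). JARID2, an accessory subunit of the Polycomb repressive complex PRC2, had ratios of -1.06 to -0.57. The homeodomain factor PITX1 had ratios of -0.52 to -0.46 in 3 lines and -1.21 in FTC-133.

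The remaining lower genes were ZNF503 (mean change -0.84), FAM171A1 (-1.01), NUDCD1 (-0.67) and AP4E1, a subunit of the adaptor complex AP-4 (-0.61), with 4 ribosome biogenesis and 3 histone genes described below. At the limit of 0.3, ICAM1, RNASET2 and SLC39A13 were just inside on the higher side and CCDC80, FADS3 and TSC22D3 just outside, with smallest ratios that all round to 0.30 or 0.29. RPUSD4, FAM216A and FBXO45 were just inside on the lower side and C3orf14, RABL3 and VBP1 just outside, at -0.30 and -0.29.

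Of 41 collagen and matrix genes tested, 18 were higher and 1 lower at an unadjusted p under 0.05, beside 4.58% and 5.44% of all genes. None passed the adjusted threshold. In every line 15 were above 0 and 1 below, beside 6.39% and 11.5% of all genes. On the higher side 8 were past 0.3 in every line, beside 1.39% of all genes. The median change was 0.51, beside -0.09 for all genes tested, and the line medians were 0.68 in 8505C, 0.80 in CAL-62, 0.19 in TPC-1 and 0.35 in FTC-133. With each line centred, 20 were higher and 1 lower at that p, beside 729 and 419 of all 10063 genes. THBS1, thrombospondin, a matricellular protein that activates latent TGF-beta, was 404.0 and 2073 TPM in 8505C, 32.39 and 45.72 TPM in CAL-62, 58.22 and 251.0 TPM in TPC-1, and 177.3 and 586.2 TPM in FTC-133. Its mean change was 1.66 (SE 0.30; limma adjusted p = 0.122).

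COL4A1 and COL4A2, the paired chains of basement membrane collagen, had ratios of 0.40 to 0.88 and 0.45 to 0.80 in 3 lines, and of 4.49 and 3.71 in FTC-133. In that line COL4A1 was 13.07 TPM in the control and 315.4 TPM in the treated library. LOXL2, another cross-linking oxidase, the microfibril protein FBN1, the laminin chain LAMA5 and the fibril-associated COL16A1 make up the rest of the 8, with mean changes of 0.96 to 1.12. COL1A1, a fibroblast marker too, was higher in treated 8505C and CAL-62 (ratios 1.89 and 2.93) and had ratios of -0.11 and -0.50 in TPC-1 and FTC-133. The summed level of 10 fibroblast markers moved from 48.3 to 66.1 TPM in 8505C, 98.4 to 527.1 TPM in CAL-62, 4.5 to 5.2 TPM in TPC-1 and 3126.7 to 2478.2 TPM in FTC-133. PDGFRA was at or below 0.29 TPM in all 8 libraries. The part of this marker sum in the matrix result was not tested.

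Of 30 integrins and adhesion genes, 9 were higher and 1 lower at an unadjusted p under 0.05, beside 4.58% and 5.44% of all genes. The line medians were 0.87, 0.45, 0.04 and 0.02, and whether the approaches differ over the list was not tested. ITGB5, an integrin chain that binds vitronectin, had ratios of 0.50 to 1.44, and the tetraspanin CD9 0.61 to 1.12. Of 24 matrix proteases and regulators, 5 were higher and 1 lower at that p. Among 20 genes of the TGF-beta pathway 3 were higher and 0 lower. They were the ligand TGFB2 (mean change 1.35, limma adjusted p = 0.122), and LTBP2 and LTBP3 of the latent TGF-beta binding family (1.13 and 0.81). TGFB2 went from 26.69 to 58.91 TPM in 8505C, 2.72 to 8.82 TPM in CAL-62, 2.93 to 15.98 TPM in TPC-1 and 52.26 to 88.78 TPM in FTC-133. The median change of that pathway was 0.18, with -0.06 in CAL-62.

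Interferon-stimulated genes had medians of 0.25, 0.32, 0.36 and 0.49 in the 4 lines, in the same order of lines. Of 36 tested, 9 were higher and 0 lower at an unadjusted p under 0.05, beside 4.58% and 5.44% of all genes. In every line 14 were above 0 and 0 below, beside 6.39% and 11.5% of all genes, and the median change was 0.38. GBP1, an interferon-induced GTPase, was 4.43 and 7.68 TPM in 8505C, 4.61 and 10.73 TPM in CAL-62, 14.03 and 24.16 TPM in TPC-1, and 11.92 and 39.02 TPM in FTC-133. IFIT1, which binds RNA that lacks a self cap, had ratios of 1.27, 0.97, 0.40 and 0.54. Their limma adjusted p-values were 0.241 and 0.331. DDX60 and HERC5, an RNA helicase and an ISG15 ligase, were past 0.3 in every line as well, from control levels as low as 0.1 and 0.49 TPM.

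Of 14 sensors of double-stranded RNA and DNA, 1 was higher and 0 lower at that p, beside 4.58% and 5.44% of all genes. Over the list 9 had a mean change above 0 and 5 below, and the median change was 0.1. The 1 past that p was STING1, the adaptor of cytosolic DNA sensing. Its control and treated levels were 44.23 and 68.61 TPM in 8505C and 5.6 and 11.55 TPM in CAL-62. They were 42.64 and 58.68 TPM in TPC-1 and 13.04 and 21.01 TPM in FTC-133. IFI16, also on the list, had ratios of -0.93, -1.16, 0.55 and -0.39 in the same order of lines. The monocyte gene CD14 had ratios of 1.88, 2.72, 0.13 and 0.93, and treated 8505C reached 85.19 TPM. In TPC-1 it was near the floor, at 0.1 and 0.21 TPM. ITGAM went from 7.43 to 4.04 TPM in TPC-1, and CSF1R from 1.79 to 6.13 TPM in FTC-133. Other leukocyte markers were low, with MS4A1 at 0.0 TPM in every library and the sum of 6 immune markers at 8.1 TPM or less in TPC-1 and FTC-133. The part of CD14 in the interferon result was not tested.

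Of 24 genes of cholesterol synthesis and uptake tested, 7 were higher and 0 lower at an unadjusted p under 0.05, beside 4.58% and 5.44% of all genes. The median change was 0.39, and the line medians were 1.04 in 8505C, 0.62 in CAL-62, 0.14 in TPC-1 and 0.01 in FTC-133; a difference between lines over the list was not tested. ACAT2, the thiolase that opens the pathway, was 9.81 and 29.54 TPM in 8505C, 5.44 and 9.35 TPM in CAL-62, 28.44 and 43.48 TPM in TPC-1, and 32.77 and 56.85 TPM in FTC-133. Its ratios ran from 0.60 to 1.5. The list's median was 0.18 when 8505C was left out and 0.64 when FTC-133 was.

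Of the 98 genes lower in every line, 14 belonged to a list of 103 ribosome biogenesis factors that was assembled after values had been seen, so its counts are a description and support nothing. Of 100 tested, 0 were higher and 34 lower at an unadjusted p under 0.05, beside 4.58% and 5.44% of all genes. In every line 32 were below 0 and 0 above, beside 11.5% and 6.39% of all genes. The line medians were -0.44, -0.93, -0.64 and 0.18, with FTC-133 on the other side of 0. The median change was -0.48, and -0.30 when CAL-62 was left out. ESF1, a nucleolar factor of pre-rRNA processing, went from 71.38 to 41.05 TPM in 8505C, 73.02 to 42.11 TPM in CAL-62, 47.34 to 26.2 TPM in TPC-1 and 29.44 to 18.58 TPM in FTC-133. Its ratios of -0.83 to -0.64 were the closest together of the 30 genes drawn, and limma's adjusted p was 0.331.

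PUM3 had ratios of -1.03, -1.01, -0.84 and -0.47, and SDAD1 -0.81, -1.15, -0.67 and -0.46. RPF2, which brings the 5S particle into the large subunit, had ratios of -1.04 to -0.47. WDR36, WDR75, UTP15, UTP20 and NOL11 belong to the small subunit processome, and their mean changes lay between -0.77 and -0.59. The helicases DDX18, DDX21 and DDX27, the GTPase GTPBP4 and CEBPZ complete the 14. MYC, a transcription factor that activates many of these genes through CACGTG, had ratios of -0.44, -1.48, -0.90 and 0.24, the same signs as the line medians of the list; this was not tested.

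**Figure D4:**
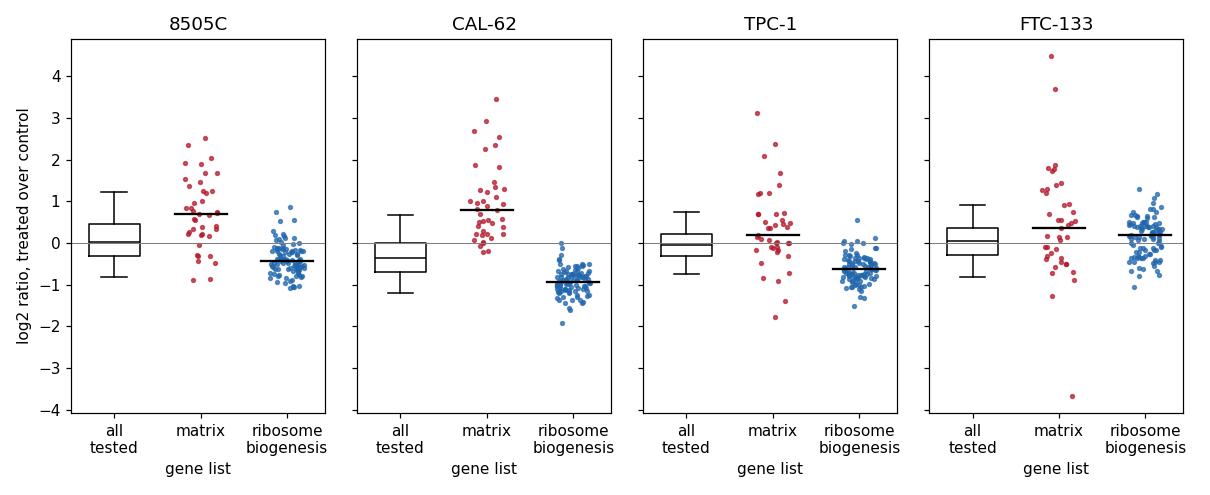
Log2 ratio of each of 41 matrix and 100 ribosome biogenesis genes (points, with the median as a bar) beside all genes tested (box: quartiles, whiskers: 5th and 95th percentile) in each line. Ribosome biogenesis medians are -0.44, -0.93, -0.64 and 0.18, and matrix medians are above 0 in every line.

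Promoters of ESF1 and PUM3 are shown for the E-box CACGTG, which reads the same on both strands and is in capitals. RefSeq places them at chr20:13784870-13785169 and chr9:2844046-2844345, both on the minus strand (GRCh38.p14), 5′ to 3′.
ESF1: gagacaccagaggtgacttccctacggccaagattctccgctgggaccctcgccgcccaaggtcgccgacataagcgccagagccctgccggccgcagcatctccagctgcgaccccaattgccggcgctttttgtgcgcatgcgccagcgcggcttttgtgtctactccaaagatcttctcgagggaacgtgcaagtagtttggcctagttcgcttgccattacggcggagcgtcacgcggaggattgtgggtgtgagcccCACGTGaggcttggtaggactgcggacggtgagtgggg
PUM3: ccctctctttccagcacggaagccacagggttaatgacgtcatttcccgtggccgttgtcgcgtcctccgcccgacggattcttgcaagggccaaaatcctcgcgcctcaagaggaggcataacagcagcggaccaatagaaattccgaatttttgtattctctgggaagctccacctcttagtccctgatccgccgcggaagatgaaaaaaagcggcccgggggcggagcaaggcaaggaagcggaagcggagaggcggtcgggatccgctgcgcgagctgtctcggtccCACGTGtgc
CACGTG was in 36.1% of 83 promoters of the ribosome biogenesis list, in 18.5% of 81 promoters of genes lower in every line, in 4.6% of 108 of genes higher in every line, and in 10.4% of the 8272 of genes tested. AGGTCA, on either strand, was in 14.8%, 4.6% and 9.1% of the lower, higher and all promoters. A match describes the letters and not binding.

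Of 32 translation factors, 0 were higher and 6 lower at an unadjusted p under 0.05, beside 4.58% and 5.44% of all genes. In every line 14 were below 0, beside 11.5% of all genes, and the median change was -0.40. The 56 cytosolic ribosomal proteins all had a mean change below 0, but their line medians were -0.38, -1.22, 0.14 and 0.07, with 0 members at that p in either direction. The CAL-62 value stands beside that line's mitochondrial share of 57.22% in the control and 67.85% in the treated library. With mitochondrially encoded genes left out, 30 of the 100 ribosome biogenesis genes were lower at that p, beside 429 of the 10910 genes tested then. In every line 32 of the list were below 0 in that setting. The share over all genes was not taken there, and the 11.5% above belongs to the main setting. That list was assembled after values were seen, so these counts are a description. The part of the mitochondrial share was not tested.

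Replication-dependent histones were lower on average in all 14 tested, with a median change of -0.65. At an unadjusted p under 0.05, 8 were lower, beside 5.44% of all genes. In every line 7 were below 0, beside 11.5% of all genes. H2BC12 went from 574.0 to 331.2 TPM in 8505C, 321.9 to 177.7 TPM in CAL-62, 209.4 to 151.5 TPM in TPC-1 and 243.7 to 172.8 TPM in FTC-133. H2BC21 had ratios of -1.72, -1.80, -0.53 and -0.43, and the linker histone H1-2 -1.46, -2.09, -0.18 and -1.27. H4C8 was at 2.24 and 0.22 TPM in FTC-133, on as few as 2 reads. H4C8 and H4C9 encode the same protein from near-identical copies, and these RNAs mostly lack a poly(A) tail, so their values are uncertain. Genes of G1/S and replication had 0 higher and 2 lower of 39 at that p, with line medians of 0.35, -0.51, -0.36 and 0.11. The H2BC12 promoter (chr6:27146809-27147108, minus strand, GRCh38.p14), 5′ to 3′, is shown with TATAAA in capitals on either strand, since most of the listed histone genes hold it.
H2BC12: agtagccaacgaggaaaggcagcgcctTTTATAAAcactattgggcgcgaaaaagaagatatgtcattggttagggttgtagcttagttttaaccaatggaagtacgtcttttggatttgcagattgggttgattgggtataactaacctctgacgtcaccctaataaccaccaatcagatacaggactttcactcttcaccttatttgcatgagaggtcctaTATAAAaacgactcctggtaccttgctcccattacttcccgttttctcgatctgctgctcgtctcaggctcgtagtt
TATAAA was in 10 of 12 histone promoters (83.3%) and in 5.2% of all.

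**Figure D5:**
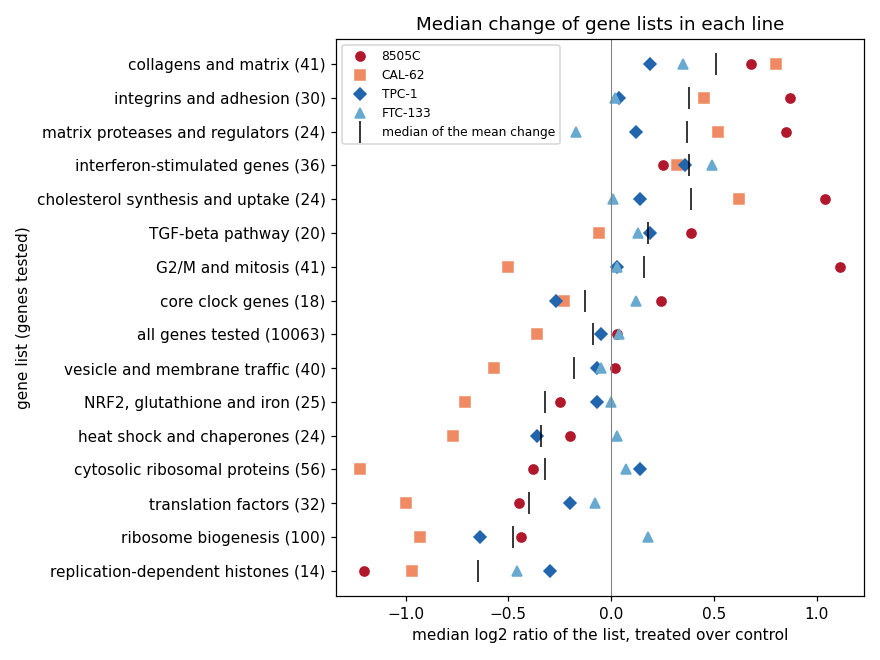
Median log2 ratio of 16 gene lists in each line (symbols) and the median of the mean change (bar), with the number of genes tested. Interferon-stimulated genes lie within 0.25 to 0.49 in the 4 lines, whereas G2/M genes reach 1.11 in 8505C and -0.50 in CAL-62.

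Stress lists differed in how far the 4 lines shared a direction. Of 24 heat shock and chaperone genes, 22 had a mean change below 0. Their medians were -0.2 in 8505C, -0.77 in CAL-62, -0.36 in TPC-1 and 0.03 in FTC-133. In every line 7 of them were below 0 and 0 above, beside 11.5% and 6.39% of all genes. Of 25 genes of NRF2, glutathione and iron handling, 0 were higher and 6 lower at an unadjusted p under 0.05, beside 4.58% and 5.44% of all genes. FTL, the ferritin light chain, had ratios of -0.94, -1.55, 0.14 and -1.36. Of 24 genes of the unfolded protein response, 0 passed that p in either direction.

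Genes whose treated effect differed between the siRNA lines and the vector lines numbered 29 at a limma adjusted p under 0.05 (0.288% of the genes tested), on 2 residual degrees of freedom. The number was 0 with a pseudocount of 5 and 48 with a robust prior. Without TPC-1 it was 183, but the vector arm was then FTC-133 alone, assumed to vary like the siRNA lines. NR1D1 direction, reagent and cell line cannot be told apart in this contrast. S100A10, an annexin partner, was 1557 and 203.1 TPM in 8505C and 338.9 and 41.06 TPM in CAL-62, but 821.0 and 898.8 TPM in TPC-1 and 1257 and 1381 TPM in FTC-133. The siRNA effect minus the vector effect was -3.11 (limma adjusted p = 0.00787). SEMA7A, a membrane-anchored semaphorin, was 4.21 and 54.09 TPM in 8505C and 41.51 and 251.7 TPM in CAL-62, with ratios of 0.11 and -0.05 in the vector lines and a difference of 2.96 (limma adjusted p = 0.00787). IGFBP3, which binds insulin-like growth factors, was 676.5 and 3219 TPM in TPC-1 and 33.95 and 177.5 TPM in FTC-133, with ratios of -0.51 and -0.50 in the siRNA lines. OLFML2B had a difference of 0.27 (limma adjusted p = 0.939).

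The 140 higher and 98 lower genes differed little in size from the rest as a description: median gene spans were 37.7, 33.8 and 33.5 kb for higher, lower and all genes tested. Genes longer than 100 kb made up 26.4%, 21.4% and 19.2%. The fewest reads in any library had a median of 116, 227 and 239, so the higher genes rested on fewer reads. The X chromosome held 2 of the 140, 1 of the 98 and 356 of the 10063.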

How the data were processed

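RNA was extracted with Trizol and sequenced on Illumina libraries, per the labels' protocols. The submitters' processing notes name FastQC, MultiQC, Trimmomatic 0.38, featureCounts 2.0.0 and GRCh38; no aligner is named there. The deposited tables of 8505C and CAL-62 hold TPM that sum to 1000000. The deposited TPC-1 and FTC-133 tables are named TPM, but sum to 253330.3 to 261469.4 and, multiplied by GENCODE 29 exon length and summed, give 1.001 to 1.005 times the constant that defines FPKM; all columns were rescaled to a sum of 1000000. Genes were matched by identifier (58611 of 58884 in GENCODE 29).

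From these values log2(TPM + 1) was fitted with limma 3.58.1 (R 4.3.3; trend, cell line as a block, 3 residual degrees of freedom), with Benjamini-Hochberg adjustment over 10063 genes. The labels do not say that the libraries of a line were cultured or transfected together, so the block pairs them by cell line. Reads recovered from the value steps (92.8% to 93.8% of values of 1 to 10 reads whole within 0.02) give depth only. On simulated data for this comparison (10063 genes), planted changes of log2 1, 1.5, 2 and 3 were called in 33, 49, 50 and 50 of 50 genes each, with 14 false calls. The simulated noise was independent between libraries and many genes were changed at once, so these rates need not hold for the real libraries. In the data OLFML2A, with a mean change of 2.06, was not called, so an uncalled gene may still have changed.

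Named genes were those past the adjusted threshold, the 15 a direction with the largest ratio floor, up to 3 a list by smallest p, NR1D1 with clock and housekeeping genes, 5 a direction for the siRNA and vector difference, and 3 each side of the 0.3 limit. These 184 genes entered every alternative, with 23 added after values were seen. Only some of them are described. The members, 43 gene lists and tests were chosen with earlier results of these data known; the ribosome biogenesis list and 1 of 17 alternatives were added after values were seen.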

Additional observations from a re-analysis of the deposited data

Results flagged for a closer look

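Among 251 genes, lists and medians with a value in each of the 4 lines, 18 had 1 line far from the other 3. By Dixon's test, the gap to the nearest other line took up most of the range. Chance flags about 1 in 20 groups that were not chosen by their values. Many of these items were chosen by their ratios or after values were seen, so the 18 cannot be set against that rate. In 8505C the flagged items were OLFML2B at 2.49 (1.82 to 1.91 in the other lines), AP4E1 at -0.94 and HK2 at -1.13. CENPA at 1.84 (-0.01 to 0.09 elsewhere) and the median of the mesenchymal genes at 0.56 were flagged there too. In CAL-62 the flagged items were COL5A1 at 3.46, NUDCD1 at -1.02, VBP1 at -0.89 and SNRPE at -1.09. The medians of the nuclear respiratory chain subunits at -0.86 and of vesicle and membrane traffic at -0.57 were flagged in CAL-62 too. In TPC-1 TAOK1 stood at -2.58. In FTC-133 the flagged items were PITX1 at -1.21, AEN at 0.95 (-1.73 to -1.32 elsewhere) and CRY2 at 0.11. COL4A1 at 4.49, COL4A2 at 3.71 and CHRDL1 at 5.07 (0.66 to 1.27 elsewhere) were flagged in FTC-133 too.

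The treated effect differed between siRNA and vector lines, by limma's test of the difference at an adjusted p under 0.05, for 12 of the genes carried through the alternatives. The siRNA effect minus the vector effect was 3.97 for PLSCR4, 3.05 for TMEM87B, 3.39 for PTX3, 4.33 for UGT8, 2.96 for SEMA7A and 2.71 for COL1A1. It was -3.11 for S100A10, -2.80 for IGFBP3, -2.46 for UBAC2, -3.67 for GJA1, -3.56 for SPP1 and -2.34 for SELENOT.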

How the results depend on the processing

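Genes called by limma numbered 1 with the settings reported. The number was 8 with a mean of at least 20, 4 with a robust prior, 0 with no filter on low values and 97 when siRNA and vector effects were fitted separately, a model chosen after seeing the data; it was 0 to 2 leaving out 1 line. OLFML2B had a change of 2.02 under no filter and without the line block, where its call was lost, and 1.86 to 2.08 leaving out 1 line. Without the replicate block, 0 genes were called and 14 were higher and 4 lower at an unadjusted p under 0.05; the difference between approaches had 0 calls and 18 genes at that p.

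Of 10063 genes tested, 461 were higher at an unadjusted p under 0.05. The number was 252 of 5951 with a mean of at least 20 and 729 of 10063 after centring. With mitochondrially encoded genes left out it was 821 of 10910, and leaving out 1 line it was 246 to 525. Lower genes (547) numbered 110 to 863 leaving out 1 line. Without CAL-62 392 were higher and 110 lower, and without FTC-133 525 and 863. Genes past 0.3 in every line (140 higher, 98 lower) numbered 84 and 56 with a pseudocount of 5. With a mean of at least 20 they numbered 69 and 63 of 5951. Without mitochondrially encoded genes they numbered 245 and 64 of 10910. The lower were 58 after centring and 59 of 8766 in the columns as deposited. Leaving out 1 line, and so asking for only 3, gave 173 to 344 higher and 118 to 656 lower.

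The difference between siRNA and vector lines (29 genes) had 0 calls with a pseudocount of 5, a mean of at least 1 or no filter, 2 with all biotypes, 4 after centring, 5 without mitochondrially encoded genes, 48 as deposited and with a robust prior, and 3 to 183 leaving out 1 line, where 1 arm is a single line assumed to vary like the other arm. Its count at an unadjusted p under 0.05 was 844 of 10063 genes tested, and 510 of 5951 with a mean of at least 20.

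Of 3451 gene values under alternatives, 3431 kept their sign. MT1E turned to -0.16 with a pseudocount of 5 and -0.13 as deposited, and NFIL3 to 0.0 after centring and 0.02 without mitochondrially encoded genes. Leaving out 1 line also turned the sign of 13 genes, whose values then ranged as follows: PLSCR4 -0.23 to 1.38, BMAL1 -0.11 to 0.27, PER1 -0.16 to 0.52, TEF -0.3 to 0.41, NFIL3 -0.27 to 0.03, PTX3 -0.18 to 1.3, MT2A -0.52 to 0.22, ACTB -0.33 to 0.13, TBP -0.23 to 0.05, MT1E -0.45 to 0.76, PER2 -0.29 to 0.02, CRY1 -0.31 to 0.02, POSTN -0.11 to 0.48. Of 526 list medians, 5 moved by more than the spread between lines. The cause of these shifts was not tested.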

Other observations

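A few further genes were chosen after their values were seen. BCAT1, a cytosolic branched-chain aminotransferase, was 56.94 and 15.57 TPM in control and treated 8505C, 24.05 and 2.64 TPM in CAL-62 and 25.9 and 5.17 TPM in FTC-133, but 31.94 and 38.57 TPM in TPC-1. It was called by limma when TPC-1 was left out (adjusted p = 0.0443). CHRDL1, a secreted BMP antagonist, was 0.41 and 46.35 TPM in FTC-133, with ratios of 0.66 to 1.27 in the other lines. PDGFA, a growth factor ligand, and NID2, a basement membrane protein, were past 0.3 in every line, with mean changes of 1.20 and 1.03. CYRIA, a regulator of Rac signalling to the WAVE complex, went from 2.13 to 8.53 TPM in 8505C, 3.02 to 12.77 TPM in CAL-62, 14.65 to 53.34 TPM in TPC-1 and 40.65 to 67.51 TPM in FTC-133.

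In 8505C the G2/M list had a median of 1.11 with 39 of 41 genes higher, beside -0.50, 0.03 and 0.03 in CAL-62, TPC-1 and FTC-133. The endothelial gene CDH5 was 46.79 TPM in control and 139.6 TPM in treated 8505C and at or below 0.17 TPM in the other 6 libraries.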
